A study of Xiphophorus maculatus with 24 samples.

Results

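The morning step compared skin of male *Xiphophorus maculatus* at Zt 6.5 (2 p.m.) with skin at Zt 0.5 (8 a.m.), where zeitgeber time (Zt) counts the hours from lights on. The step covers 6 h of the light phase. All 4 libraries at each of these times were taken, which made 8 of the 24 skin libraries of the series. The fish were untreated males of the inbred line Jp 163 A, kept on 13 h of light and 11 h of dark, and mRNA was measured by RNA-Seq as counts of reads per gene. By the year in the library names these fall into 2 collections. Those of the earlier collection (replicates C and D) carry an age of 24 months in their labels and those of the later collection (replicates A and B) an age of 12 months, whereas the study's methods give 12 months for all fish, so library year and labelled age cannot be told apart. Each collection supplied 2 libraries to each time. Before the experiment the tanks were given flakes each morning at the hour of Zt 0.5 and brine shrimp in the afternoon, an hour after Zt 6.5. The step therefore runs from the clock time of the morning feed to shortly before the afternoon feed, and hours of light and hours since food cannot be told apart. Neither the labels nor the methods say whether the Zt 0.5 fish had fed before dissection.

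The vertebrate clock is a feedback loop of transcription. The activators Clock and Arntl (also called Bmal) pair on DNA and drive the genes of their own repressors, the Per and Cry proteins, and of the nuclear receptors Nr1d, which shut *arntl* and *clock* genes down. Ror receptors compete with Nr1d and turn the same genes on. Output is carried in part by the PAR bZIP factors Dbp, Tef and Hlf, which bind a motif named the D-box, where Nfil3 acts against them. In zebrafish, cells of peripheral tissues sense light directly, and light itself induces *per2*, a *cry1* gene and genes of DNA repair. Feeding acts on many of the same tissues through insulin and nutrient signals. Teleosts hold extra copies of many of these genes, and copies are named here by the labels Ohnolog1 and Ohnolog2 where the study pairs them.

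The 8 libraries held 26081822 to 36066368 counted reads and 20966 to 22316 genes with at least 1 count. At these depths a count of 0 allows up to 0.0832 to 0.115 CPM (counts of a gene scaled to a common library total), for counting error only. In a principal component analysis of the 8 libraries the first axis (54.2% of the variance) separated the collections and the second (23.3%) separated Zt 0.5 from Zt 6.5. Library year was therefore a term of the main tests over the 8 libraries. Levels are CPM on library totals. They are not divided by gene length, so they are compared between libraries and not between genes. Changes are log2 values, Zt 6.5 minus Zt 0.5, with their standard error (SE), from edgeR's quasi-likelihood test, and a gene was called at a Benjamini-Hochberg adjusted p under 0.05 over all genes tested.

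Of 18705 genes tested, 2524 (13.5%) rose and 2302 (12.3%) fell between Zt 0.5 and Zt 6.5, 25.8% in all. At an unadjusted p under 0.05 in edgeR, 3619 were higher and 3695 lower. The gene lists below draw only on genes with a symbol, and of the 10677 tested genes with one 17.6% rose and 13.4% fell. The changes were mostly moderate. The median called rise was 1.48-fold, with quartiles of 1.33 and 1.72, and 292 of the rises reached 2-fold. The median called fall was 1.54-fold, with quartiles of 1.36 and 1.87, and 452 of the falls reached 2-fold. Changes of 4-fold or more were found for 12 genes that rose and 53 that fell. All 4 libraries at Zt 6.5 lay above all 4 at Zt 0.5 for 7.87% of the tested genes and below them for 8.61%. Because many genes differed in level between the collections, the order was also read within each year. Both Zt 6.5 libraries exceeded both Zt 0.5 libraries in each year for 17.9% of the genes, and lay below them for 17.5%.

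The positive limb of the clock rose. All 9 tested clock activator genes were called, 7 higher and 2 lower, beside 13.5% and 12.3% of all genes. The median log2 change was 1.51, beside -0.03 for all genes tested. *clocka* (ENSXMAG00000016928), a partner of Arntl, had 9.08, 8.35, 5.94 and 3.09 CPM in the Zt 0.5 libraries (earlier C and D, then later A and B, an order kept below) and 58.3, 55.2, 60.5 and 48.7 CPM at Zt 6.5. The groups did not overlap. The log2 change was 3.13 (SE 0.25, adjusted p = 0.000323 from edgeR), 8.73-fold, the largest rise among named genes.

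*arntl1a* (ENSXMAG00000015619) had 6.42, 5.32, 7.34 and 3.27 CPM at Zt 0.5 and 39.1, 37.8, 33.7 and 34.4 CPM at Zt 6.5, with no overlap and almost the same change in the earlier collection (2.69) and in the later collection (2.75). Over the 8 libraries it rose by 2.70 (SE 0.20, adjusted p = 0.000297 from edgeR). The second *clock* gene, *clockb*, and the receptor gene *rorcb* rose by 1.40 and 1.76 on the log2 scale (adjusted p = 0.00127 and 0.00089, edgeR). *rorcb* went from 66.6 to 80.2 CPM at Zt 0.5 to between 190 and 328 CPM at Zt 6.5. The other receptor gene of that pair, *rorca*, rose by 0.54 (SE 0.13, adjusted p = 0.0168, edgeR), with groups that overlapped, and was no longer called without Zt 0.5 replicate B (adjusted p = 0.0538).

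The *arntl2* copies moved in opposite directions. *arntl2*-Ohnolog1 (ENSXMAG00000001482) had 25.1, 20.5, 13.7 and 13.8 CPM at Zt 0.5 and 53.6, 57.6, 66.2 and 60.7 CPM at Zt 6.5, a rise of 1.73 (SE 0.20, adjusted p = 0.000909, edgeR). *arntl2*-Ohnolog2 (ENSXMAG00000008892) had 54.9, 48.8, 119 and 129 CPM at Zt 0.5 and 31.6, 23.4, 66.3 and 63 CPM at Zt 6.5, a fall with a log2 change of -0.94 (SE 0.10, adjusted p = 0.000739, edgeR). The later libraries were higher at both times, so that the groups overlapped over the years, but within each year Zt 6.5 lay below Zt 0.5. The 2 remaining members were weak. *npas2*, a relative of *clock*, stayed under 7 CPM and rose by 1.51 (SE 0.41, adjusted p = 0.0293, edgeR), and *rorb*, at or below 2.31 CPM in every library, changed by -0.84 (SE 0.26, adjusted p = 0.048). Neither call was firm. With replicate letters as a block the adjusted p was 0.0707 for *npas2* and 0.0727 for *rorb*, *npas2* lost its call without any 1 of Zt 0.5 A or B or Zt 6.5 A, B or D (adjusted p from 0.0532 to 0.0734), and *rorb* lost it without any 1 library except Zt 0.5 B (0.0648 to 0.14) and under each other scaling.

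The negative limb fell. Of 18 tested clock repressor genes 12 fell (66.7%, beside 12.3% of all genes), 1 rose (5.56%, beside 13.5%) and 5 were not called. The median log2 change was -1.17. *per1b* (ENSXMAG00000015314), a period gene, showed the largest fall of any named gene. It had 129, 169, 242 and 233 CPM at Zt 0.5 and 10.9, 17.2, 22.7 and 21.6 CPM at Zt 6.5. The log2 change was -3.42 (SE 0.16, adjusted p = 8.96e-05, edgeR), a 10.7-fold fall that was nearly the same in the earlier (-3.43) and the later collection (-3.36).

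*per3* went from 282, 311, 381 and 391 CPM to 69.2, 83.8, 114 and 125 CPM, a log2 change of -1.83 (SE 0.11, adjusted p = 0.000253, edgeR). The Nr1d receptor genes fell together: *nr1d1* (-2.12), *nr1d2a* (-1.88), *nr1d4b* (-1.60), *nr1d4a* (2.01-fold lower) and *nr1d2b* (-0.77) were all called, with adjusted p from 0.000262 to 0.00933 in edgeR. Both *ciart* genes, whose mammalian counterpart binds the Clock and Arntl pair as a repressor, had larger falls than any of these. *ciarta* had 63.5, 42.6, 26.6 and 27.2 CPM at Zt 0.5 and 3.42 to 9.27 CPM at Zt 6.5 (log2 change -2.85, SE 0.30, adjusted p = 0.000761, edgeR), and *ciart* changed by -2.80 (SE 0.21). Of the Bhlhe40 and Bhlhe41 repressor genes, 1 *bhlhe40* copy (ENSXMAG00000025515) fell by 1.33 and *bhlhe41* by 0.66, while the other *bhlhe40* copy (ENSXMAG00000002248) changed by -0.29 and was not called (adjusted p = 0.0902, edgeR).

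The *cry* genes did not share a direction. *cry1ba* (ENSXMAG00000009278) had 15.1, 15.1, 4.8 and 6.57 CPM at Zt 0.5 and 63.7, 75, 44 and 49.5 CPM at Zt 6.5, and rose by 2.59 (SE 0.21, adjusted p = 0.000324, edgeR). *cry1ab*-Ohnolog1 (ENSXMAG00000001744) had 74.4, 82.7, 72.6 and 84.4 CPM at Zt 0.5 and 23.4, 29.8, 36.7 and 31.4 CPM at Zt 6.5, a log2 change of -1.39 (SE 0.14, adjusted p = 0.000563, edgeR). Neither gene's groups overlapped. Its copy *cry1ab*-Ohnolog2 lay between 101 and 173 CPM in all 8 libraries (log2 change 0.25, SE 0.17, adjusted p = 0.309, edgeR), and *cry2* between 16.5 and 26 CPM (-0.35, SE 0.13, adjusted p = 0.0775, or 0.0276 without Zt 6.5 B).

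**Figure D1:**
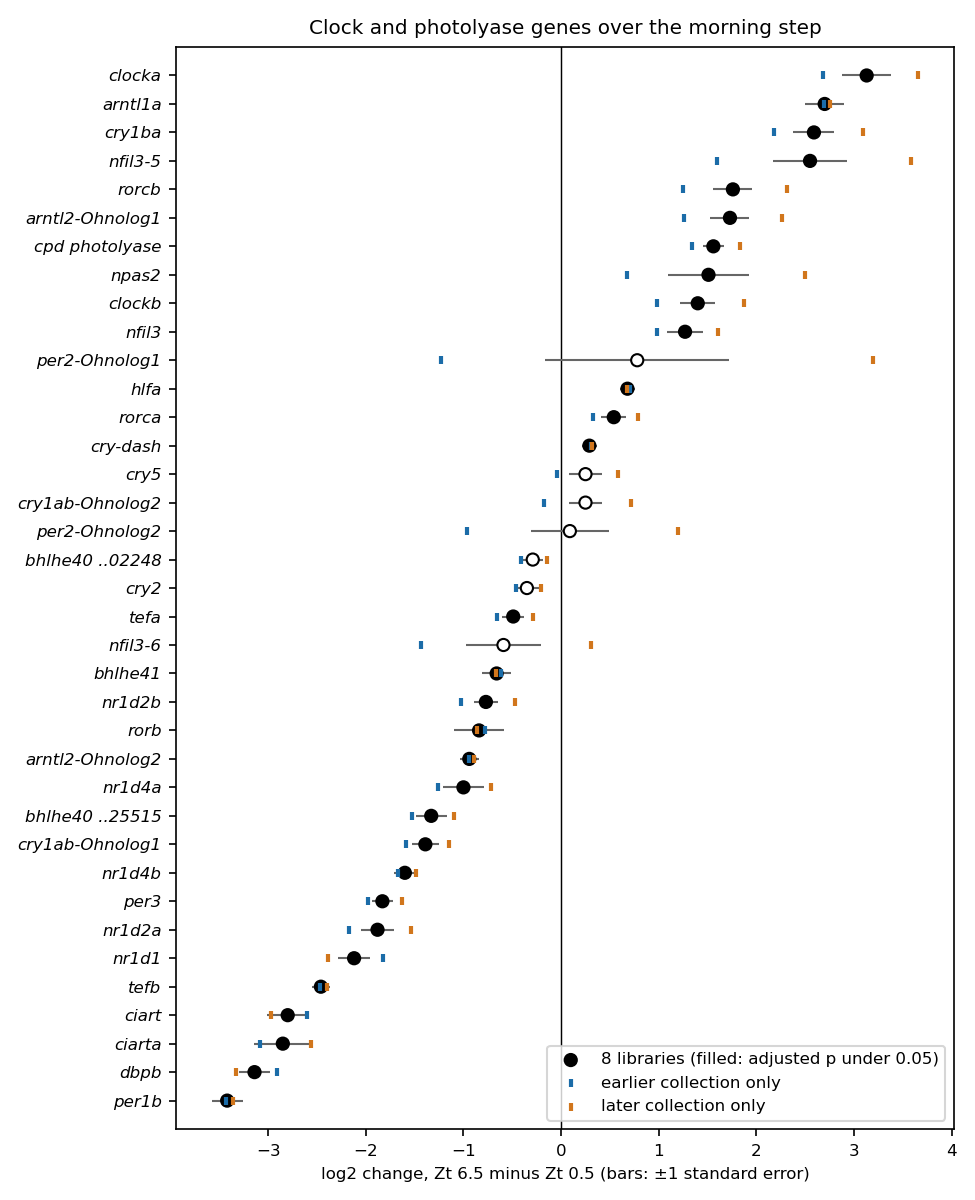
Log2 change from Zt 0.5 to Zt 6.5 (horizontal axis) of 37 clock and photolyase genes (1 per row). Black points are the change over 8 libraries with bars of ±1 SE, filled where the adjusted p was under 0.05, and coloured ticks are the change within the earlier (blue) or the later (orange) libraries. The genes run from *per1b* at -3.42 to *clocka* at 3.13, and the ticks stand on opposite sides of 0 for *per2*-Ohnolog1, *per2*-Ohnolog2, *cry1ab*-Ohnolog2, *cry5* and *nfil3-6*.

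The PAR bZIP genes split. *dbpb* (ENSXMAG00000012054) had 65.8, 93.1, 109 and 109 CPM at Zt 0.5 and 9.97, 11.6, 9.43 and 11.5 CPM at Zt 6.5, an 8.82-fold fall (log2 change -3.14, SE 0.16, adjusted p = 0.000111, edgeR). *tefb* had 331, 351, 545 and 592 CPM at Zt 0.5 and 57.4, 67.8, 107 and 100 CPM at Zt 6.5, and its change of -2.46 (SE 0.09, adjusted p = 2.88e-05, edgeR) was alike in both years. In both genes each Zt 6.5 library lay far below each Zt 0.5 library.

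The paralogue *tefa* fell by only 0.49 (SE 0.11, adjusted p = 0.0127, edgeR), while *hlfa* rose from between 168 and 245 CPM to between 299 and 370 CPM (0.68, SE 0.08, adjusted p = 0.00114, edgeR). *nfil3-5*, a copy of the gene for the factor that opposes them, rose by 2.55 (SE 0.38, adjusted p = 0.00263, edgeR), and *nfil3* by 1.27 (SE 0.18). Another copy, *nfil3-6*, was not called (-0.59, SE 0.38, adjusted p = 0.289). In all, 3 of these 7 genes rose and 3 fell (42.9% each, beside 13.5% and 12.3% of all genes).

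Several genes for the repair of ultraviolet damage rose. Of 16 tested members 6 were called, all higher (37.5%, beside 13.5% of all genes and 17.6% of those with a symbol). By edgeR, by DESeq2 or at an unadjusted p under 0.05 0 were lower, beside 12.3% of all genes in edgeR. The number that rose was 4 without Zt 0.5 C or Zt 6.5 D. It was 3 with all 24 libraries in 1 edgeR fit, with 5 higher at an unadjusted p under 0.05. In that fit 594 of all 19783 genes tested rose and 414 fell. The *cpd photolyase* gene (ENSXMAG00000004751), whose enzyme uses visible light to split pyrimidine dimers, had 38.5, 33.5, 29.9 and 30.5 CPM at Zt 0.5 and 91.3, 94.2, 104 and 102 CPM at Zt 6.5. The values were tight and did not overlap, and the change was 1.56 (SE 0.11, adjusted p = 0.00027, edgeR). *xpc*, which recognises DNA damage for excision repair, had 15.1, 20.1, 12.1 and 11.4 CPM at Zt 0.5 and 28.9, 32.8, 49.5 and 44.7 CPM at Zt 6.5 (1.39, SE 0.25, adjusted p = 0.0059, edgeR).

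The excision repair helicase gene *ercc2* rose by 0.79 (SE 0.12, adjusted p = 0.00271, edgeR), from 6.62 to 10.6 CPM at Zt 0.5 to between 12.2 and 17.7 CPM at Zt 6.5. The damage sensor gene *ddb1* rose by 0.36 (SE 0.06, adjusted p = 0.0053, edgeR). *cry-dash*, a cryptochrome gene related to photolyases, rose from between 12.7 and 14.7 CPM to between 15.8 and 17.9 CPM. This small change of 0.29 (SE 0.08, adjusted p = 0.0359, edgeR) lost its call with the replicate block (0.0833) and without any 1 library except Zt 6.5 C (0.058 to 0.103). *cry5*, the gene of the 6-4 photolyase, was not called over the 8 libraries (0.25, SE 0.17, adjusted p = 0.29, edgeR). Within the later collection it rose by 0.58 (adjusted p = 0.04, edgeR), and within the earlier it changed by -0.04 (adjusted p = 0.913, edgeR). Its higher level at Zt 3.5 is given below.

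Genes for making, folding and removing proteins rose in large numbers. The proteasome list, the subunits of the complex that degrades proteins, had 32 of 44 tested members higher and 1 lower, against 13.5% and 12.3% of all genes, with a median log2 change of 0.52 that was 0.53 in the earlier collection and 0.48 in the later collection. *psmd2*, a subunit of its regulatory particle, had 124, 124, 67.2 and 71.5 CPM at Zt 0.5 and 235, 227, 131 and 124 CPM at Zt 6.5. Levels were lower in the later collection at both times, but the rise was alike, 0.88 over the 8 libraries (SE 0.07, adjusted p = 0.000297, edgeR). *psmd11b*, *psmd8* and *psmd1* rose by 1.12, 1.03 and 0.80. Each had both Zt 6.5 libraries above both Zt 0.5 libraries in each year, as had 35 of the 44 members, beside 17.9% of all genes. Across all 8 libraries 3 members lay higher without overlap, beside 7.87% of all genes, and 1 lower, beside 8.61%.

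In the endoplasmic reticulum list, chaperones and enzymes that fold secreted proteins, 23 of 34 tested members rose (67.6%, beside 13.5% of all genes). In this list 0 fell, beside 12.3% (0 also by DESeq2 and at an unadjusted p under 0.05). Within the earlier collection alone 1 member fell. *hyou1*, another chaperone of the reticulum, had 52.4, 42.1, 28.8 and 27.1 CPM at Zt 0.5 and 158, 133, 80.2 and 70.1 CPM at Zt 6.5. It rose 2.87-fold (log2 change 1.52, SE 0.09, adjusted p = 0.000253, edgeR), by 1.60 in the earlier collection and 1.48 in the later collection. *manf*, a secreted factor of the same compartment, rose by 1.32, the disulphide isomerase gene *pdia5* by 1.26 and the signal peptidase gene *spcs2* by 0.66.

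Of 27 tested chaperones of the cytosol and mitochondria, 14 rose in edgeR (51.9%, beside 13.5% of all genes). There 0 fell, beside 12.3% (0 by DESeq2, 1 at an unadjusted p under 0.05, and 1 in edgeR without Zt 0.5 A). Within the earlier collection 16 rose and within the later 7, beside 11.7% and 6.33% of all genes, with list medians of 0.75 and 0.22. *hspd1* and *hspe1*, which form the folding chamber of mitochondria, rose by 1.18 and 1.29. *hspd1* had 116, 119, 58.3 and 54.3 CPM at Zt 0.5 and 357, 306, 114 and 93.2 CPM at Zt 6.5, so that the later libraries at Zt 6.5 lay just below the earlier ones at Zt 0.5. *hspa4b* and *ptges3b*, co-chaperones, rose by 1.02 and 1.12. All 4 were called with adjusted p from 0.00051 to 0.000795 in edgeR.

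The machinery that builds ribosomes rose, while few ribosomal protein genes were called. Of 99 tested ribosome biogenesis genes 52 rose (52.5%, beside 13.5% of all genes) and 5 fell (5.05%, beside 12.3%), with a median of 0.41. The lower count was 3 with the replicate block or without 1 of Zt 0.5 B or D or Zt 6.5 B, C or D. Within the earlier libraries 61 rose, beside 11.7% of all genes there, and within the later libraries 19, beside 6.33%. *noc2l*, a nucleolar factor, had 13.2 to 15.9 CPM at Zt 0.5 and 75.5, 59.6, 46 and 34 CPM at Zt 6.5 (1.81, SE 0.16, adjusted p = 0.000432, edgeR). *nol10* and *wdr75* rose by 1.17 and 1.14, whereas *utp4*, a factor of the same pathway, fell in all libraries, from between 76.7 and 107 CPM to between 48.4 and 63 CPM (-0.68, SE 0.06, adjusted p = 0.000482, edgeR). Among 73 tested genes matched by a ribosomal protein name 2 rose and 1 fell. Those were *rpl7l1*, a factor related to a ribosomal protein, and the kinase genes *rps6kc1* (higher) and *rps6ka2* (lower), which share the name stem and are not subunits. The call of *rps6ka2* was lost without Zt 6.5 C or D (adjusted p = 0.0541 and 0.0528, edgeR). Without the kinases and most similar names 63 genes were tested, and only *rpl7l1*, which stayed in by its name, was called. The median was -0.05, and 6 of the 63 changes lay above 0.

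Of 19 tested tRNA synthetase genes, whose enzymes load amino acids on tRNA, 10 rose (52.6%, beside 13.5% of all genes). In this list 0 fell, beside 12.3% (0 also by DESeq2 and at an unadjusted p under 0.05). The count of rises was 6 without Zt 0.5 B and 5 without Zt 6.5 A. *mars*, for methionine, was among the 12 largest rises listed below. It had 16.6, 27.7, 3.89 and 4.65 CPM at Zt 0.5 and 105, 79, 33 and 16.9 CPM at Zt 6.5 (2.27, SE 0.27, adjusted p = 0.00106, edgeR). *gars*, *tars* and *larsb* rose by 1.12, 0.97 and 0.86. In the mitochondrial ribosome 20 of 56 tested proteins rose (35.7%, beside 13.5% of all genes) and 1, *mrps5*, fell (1.79%, beside 12.3%). Within the earlier collection 19 rose and within the later 3, beside 11.7% and 6.33% of all genes, with list medians of 0.40 and 0.10. The count over the 8 libraries was 12 with the replicate block and 9 without Zt 0.5 C, 10 without Zt 6.5 A or C and 12 without Zt 0.5 D or Zt 6.5 D. *mrpl20* rose by 1.03 and *mrps15* by 0.62.

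Among splicing factors 28 of 44 tested members rose (63.6%, beside 13.5% of all genes) and 3 fell (6.82%, beside 12.3%). The median was 0.43, with 0.45 in the earlier collection and 0.41 in the later collection. *snrpa*, a protein of the U1 particle, had 24.3, 20.9, 4.95 and 4.69 CPM at Zt 0.5 and 59.7, 58.5, 17.2 and 14.6 CPM at Zt 6.5. The rise of 1.53 (SE 0.11, adjusted p = 0.000297, edgeR) was seen in each year, on levels that were several-fold lower in the later collection at each time. *sf3b4* and *snrnp40* rose by 1.22 and 0.93. The counts of these lists, like those of all genes, were far lower when all 24 libraries shared 1 edgeR fit. There 594 of all 19783 genes tested rose and 414 fell. Then 12 endoplasmic reticulum genes, 7 proteasome genes, 6 splicing factors, 2 chaperones and 1 ribosome biogenesis gene rose, with 22, 21, 24, 12 and 40 higher at an unadjusted p under 0.05. Of the tRNA synthetases and the mitochondrial ribosomal proteins 0 rose, with 6 and 11 higher at an unadjusted p under 0.05, and DESeq2 was not run on all 24.

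Respiratory chain subunits did not stand out among the rises. Of 55 tested members 8 rose (14.5%, beside 13.5% of all genes and 17.6% of genes with a symbol) and 3 fell (5.45%, beside 12.3% and 13.4%). Among them *sdha* changed by 0.52 (SE 0.06), *ndufs8* by 0.70 and *uqcrc2a* by 0.57. The isoform gene *cox4i2* was lower at -1.01 (SE 0.19, adjusted p = 0.00645, edgeR). The number that rose was 5 with the replicate block, and 5 without Zt 0.5 B or C or Zt 6.5 A or D, and 6 fell without Zt 0.5 D. For DNA replication 9 of 44 rose (20.5%, beside 13.5% of all genes and 17.6% of those with a symbol) and 1 fell (2.27%, beside 12.3%). The rises were led by *pcna*, the sliding clamp (0.68, SE 0.08, adjusted p = 0.00115, edgeR), *dnmt1* (0.46), *uhrf1* (0.72) and *mcm7* (0.53). Without Zt 0.5 C, Zt 6.5 B or Zt 6.5 D 5 rose, and 0 fell without any 1 of Zt 0.5 A, C or D or Zt 6.5 A or C. In the fit of all 24 libraries 0 replication genes rose, beside 594 of all 19783 genes. There 6 replication genes were higher at an unadjusted p under 0.05. At an unadjusted p under 0.05, 7 of 39 tested genes of mitosis were lower and 0 higher, beside 3695 and 3619 of all 18705 genes. Of these 39, 0 were called by edgeR and 2 were lower by DESeq2, with a median of -0.22. Leaving out Zt 0.5 B gave 2 lower, and leaving out Zt 6.5 B, using the replicate block or taking the earlier collection alone gave 1.

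**Figure D2:**
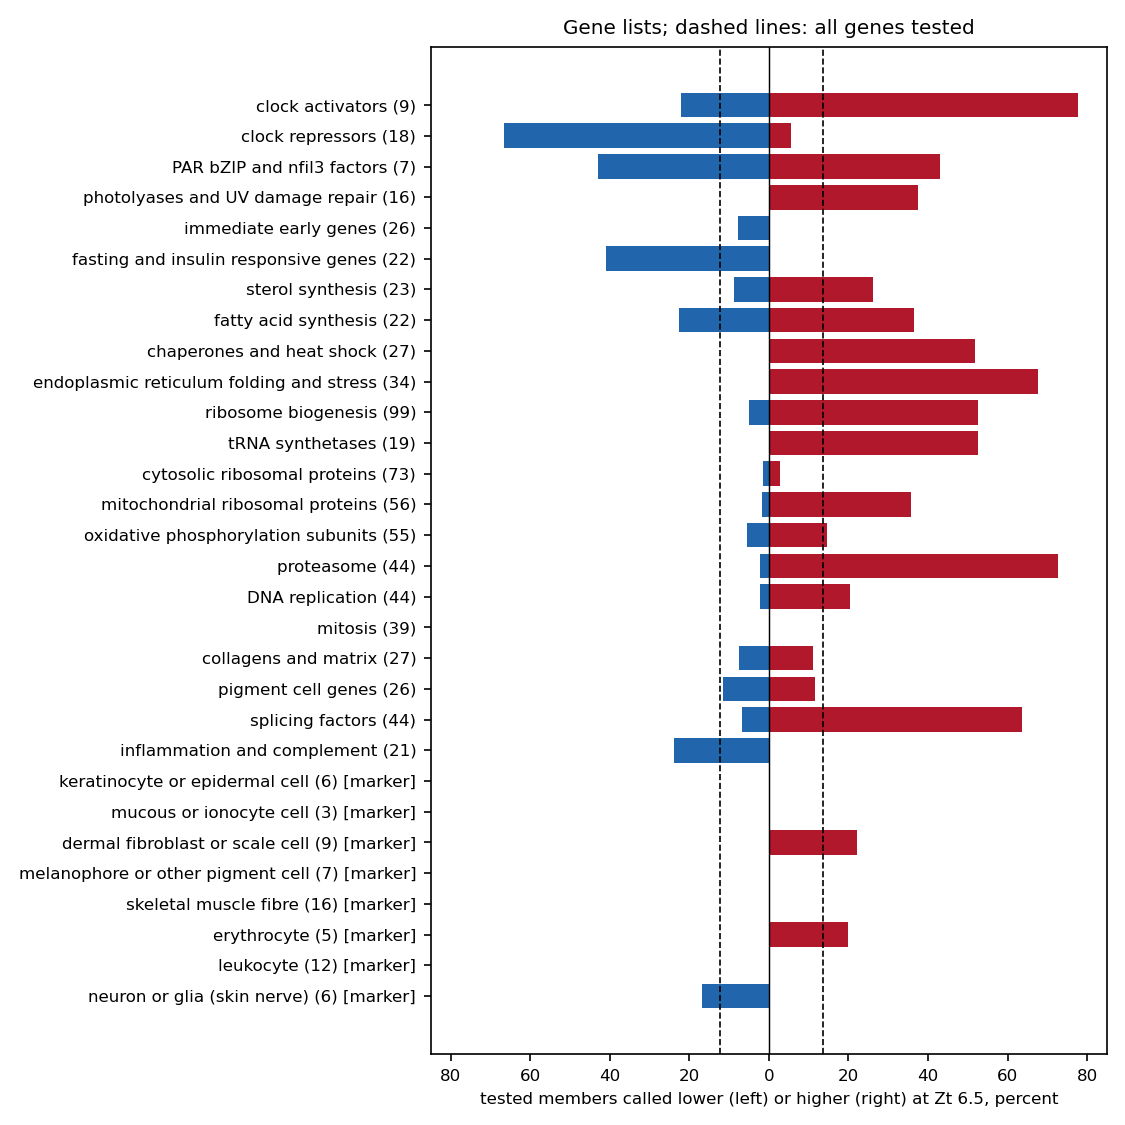
Share of the tested members (number in brackets) of each gene list called higher (red, to the right) or lower (blue, to the left) at Zt 6.5, in percent, for 22 pathway lists and 8 lists of cell type markers, with dashed lines at the shares of all genes tested, 13.5% and 12.3%. Proteasome (72.7% higher), endoplasmic reticulum folding (67.6%) and splicing factors (63.6%) reach far beyond the line, the clock repressors (66.7% lower) and the fasting list (40.9% lower) extend to the left, and mitosis and skeletal muscle have no bar.

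Several genes that are high in fasting or low insulin fell. Of 22 tested members of that list 9 fell (40.9%, beside 12.3% of all genes) and 0 rose in edgeR. At an unadjusted p under 0.05, 15 were lower and 1 higher, and by DESeq2 14 were lower and 1 higher. With library totals in place of TMM 1 rose, as did 1 within the later collection. The median was -0.79, and it was -1.07 in the earlier collection and -0.28 in the later collection. With all 24 libraries in 1 edgeR fit 2 of 23 fell, beside 414 of all 19783 genes. Of the 23, 11 were lower at an unadjusted p under 0.05. *cpt1b*, which admits fatty acids to mitochondria, had 17.7, 14, 14.6 and 17.7 CPM at Zt 0.5 and 6.97, 7.8, 4.76 and 5.1 CPM at Zt 6.5 (-1.41, SE 0.16, adjusted p = 0.000805, edgeR). *pdk2a*, a kinase that turns off pyruvate dehydrogenase, had 154, 181, 96.2 and 97.3 CPM at Zt 0.5 and 17.8, 50.6, 39.5 and 33.5 CPM at Zt 6.5 (-1.85, SE 0.33, adjusted p = 0.00529, edgeR).

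Its relative *pdk4* fell by 0.70 (SE 0.11, adjusted p = 0.0031, edgeR) with groups that overlapped. *klf15* (ENSXMAG00000007908), a transcription factor of the fasting response in mammals, went from 15.1, 22.4, 22.8 and 22.7 CPM to 2.38, 3.3, 11.5 and 8.28 CPM, a log2 change of -1.93 (SE 0.34, adjusted p = 0.005, edgeR). The other called members were *txnipa*, *cpt1ab*, *foxo4*, *fbxo32* and *insrb*.

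Lipid synthesis was mixed. Of 22 fatty acid synthesis genes 8 rose (36.4%, beside 13.5% of all genes) and 5 fell (22.7%, beside 12.3%). Fitted with all 24 libraries, 3 rose and 0 fell, with 7 higher and 2 lower at an unadjusted p under 0.05. Of all 19783 genes in that fit 594 rose and 414 fell. *srebf1*, which encodes a transcription factor that turns on lipid synthesis, rose from 55.8, 56.8, 41.3 and 42.6 CPM to 96.8, 94.6, 83.5 and 90.6 CPM (0.90, SE 0.09, adjusted p = 0.000656, edgeR), and *gpam* and *acss2* by 0.69 and 0.53. *acacb*, the acetyl-CoA carboxylase tied to the control of fat oxidation, fell by 0.84 (SE 0.10, adjusted p = 0.00123, edgeR). *lpin1*, a phosphatidate phosphatase and coregulator, was among the largest falls listed below. It had 48, 76.3, 49.8 and 55.1 CPM at Zt 0.5 and 3.33, 6.17, 19.9 and 21.2 CPM at Zt 6.5 (-2.49, SE 0.51, adjusted p = 0.00904, edgeR).

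Of 23 sterol synthesis genes 6 rose (26.1%, beside 13.5% of all genes) and 2 fell (8.7%, beside 12.3%; 1 with the replicate block and without any 1 of Zt 0.5 B or D or Zt 6.5 A, C or D). In the fit of all 24 libraries 1 rose and 0 fell, with 5 higher and 3 lower at an unadjusted p under 0.05. Of all 19783 genes in that fit 594 rose and 414 fell. *insig1*, *ebp* and *mvda* rose by 0.98, 1.15 and 0.73, whereas *fdft1*, squalene synthase, fell in each year, from 30.8, 38.5, 62.2 and 58.5 CPM to 9.38, 11.1, 27.9 and 28.5 CPM (-1.43, SE 0.17, adjusted p = 0.00101, edgeR).

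The largest changes were listed for called genes with a symbol, a mean of at least 5 CPM and one direction in both years. The 12 largest such rises held *clocka*, *arntl1a*, *cry1ba*, *nfil3-5* and *mars* together with *psat1*, *fkbp9*, *adck1*, *khsrp*, *brat1*, *eif4e1c* and *slc25a25b*. *fkbp9*, a prolyl isomerase of the endoplasmic reticulum, had 20.9, 19.5, 21.4 and 17.6 CPM at Zt 0.5 and 180, 114, 57.1 and 47.7 CPM at Zt 6.5 (2.15, SE 0.29, adjusted p = 0.00159, edgeR). Its Zt 0.5 levels were nearly equal in all 4 fish and the spread arose at Zt 6.5. *adck1*, a mitochondrial kinase-like gene, had 2.07, 1.97, 2.31 and 1.85 CPM at Zt 0.5 and 10.7, 8.72, 8.03 and 7.86 CPM at Zt 6.5 (4.27-fold, adjusted p = 0.000262, edgeR).

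*khsrp*, an RNA-binding protein gene, rose 4.23-fold, *eif4e1c*, a cap-binding initiation factor gene, 3.95-fold and *brat1* 3.95-fold. *psat1*, an enzyme of serine synthesis, was the least even of them, with 3.08, 20.8, 0.908 and 0.959 CPM at Zt 0.5 and 49, 31.9, 11.3 and 5.29 CPM at Zt 6.5 (2.27, SE 0.60, adjusted p = 0.0255, edgeR). It was not called without any 1 of Zt 0.5 A or B or Zt 6.5 A or C (adjusted p from 0.0573 to 0.0694).

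Under the same filters the 12 largest falls held the clock and PAR bZIP genes *per1b*, *dbpb*, *ciarta*, *ciart*, *tefb* and *nr1d1*. Besides them they held *lpin1*, *ankrd9*, *fbxo25*, *znf395b*, *slc43a2* and *si:ch211-221f10.2*. The filters left out larger falls. Of all called genes 53 fell 4-fold or more, and *si:ch211-221f10.2*, the smallest of the 12, fell 3.97-fold. *slc43a2*, an amino acid transporter gene, had 297, 289, 361 and 354 CPM at Zt 0.5 and 51.7, 57.7, 127 and 104 CPM at Zt 6.5 (-2.03, SE 0.18, adjusted p = 0.000432, edgeR). *fbxo25*, a subunit gene of a ubiquitin ligase, had 15.6, 21.3, 28.1 and 25.6 CPM at Zt 0.5 and 2.14, 3.62, 6.3 and 8.24 CPM at Zt 6.5 (-2.27, SE 0.25, adjusted p = 0.000795, edgeR). *ankrd9* fell from 67.5, 62.3, 18.6 and 30.4 CPM to 6.88, 6.98, 9.43 and 8.97 CPM, so that the libraries lay closer together at Zt 6.5 than at Zt 0.5.

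Of 21 tested genes of inflammation and complement 5 fell (23.8%, beside 12.3% of all genes) and 0 rose (0 also by DESeq2 and at an unadjusted p under 0.05). They were *relb* (-0.48), *nfkb2* (-0.51), *ifih1* (-0.44), *irf7* (-0.88) and *stat1a*, regulators of the NF-kB and interferon responses. Within the later libraries 0 of them were called lower and 1 list member higher, beside 3.65% and 6.33% of all genes. Within the earlier collection 8 list members fell, beside 10.9% of all genes. The count of falls was 3 with the replicate block, 3 without any 1 of Zt 0.5 C or D or Zt 6.5 C, and 2 without Zt 6.5 D. It was 0 with all 24 libraries in 1 fit, beside 414 of all 19783 genes, with 4 lower at an unadjusted p under 0.05. *irf7* had an adjusted p of 0.0306, or 0.0574 with the block and 0.0627, 0.0612, 0.0988 and 0.0908 without Zt 0.5 C or D or Zt 6.5 C or D, and *ifih1* one of 0.0156, or 0.0517 without Zt 6.5 D, all from edgeR.

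In edgeR, genes of skin structure were not called more often than other genes. Of 27 tested collagen and matrix genes 3 rose (11.1%, beside 13.5% of all genes) and 2 fell (7.41%, beside 12.3%), and DESeq2 called 7 higher and 2 lower. In edgeR 0 fell without any 1 of Zt 0.5 C or Zt 6.5 A or D, and 1 with the replicate block or without Zt 0.5 A or Zt 6.5 B or C. Among the members *hspg2* changed by -0.29, *fn1a* by 0.41 and *col1a2* by 0.71. *col1a2* had 733, 529, 4138 and 2834 CPM at Zt 0.5 and 1488, 965, 5080 and 4593 CPM at Zt 6.5, so that it differed far more between the years than between the times, and its call was lost without Zt 0.5 B (adjusted p = 0.0515, edgeR). Of 26 tested pigment cell genes 3 rose and 3 fell, 11.5% each, or 1 rose without Zt 6.5 D and 1 fell without Zt 0.5 D or Zt 6.5 C, with *bco1*, a carotenoid oxygenase gene, at 0.61 and *gch1*, of pteridine synthesis, at -0.70.

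Marker genes of the cell types that a skin sample can hold gave the background to these counts. In bulk tissue, fewer cells of a type and less RNA per cell cannot be told apart. Epidermal markers were present throughout, with *krt5*, an epidermal keratin, at 26400 to 35871 CPM at Zt 0.5 and 27481 to 41153 CPM at Zt 6.5, and 0 of 6 tested epidermal markers called by edgeR, 1 lower and 1 higher at an unadjusted p under 0.05 and 1 higher by DESeq2. Leaving out Zt 0.5 A or taking the earlier collection alone gave 1 lower, and leaving out Zt 6.5 C gave 1 higher. Muscle RNA was also present. The 17 muscle markers summed to 7624 to 16516 CPM at Zt 0.5 and 6315 to 16249 CPM at Zt 6.5. Of the 16 tested, 0 were called by edgeR or DESeq2 or at an unadjusted p under 0.05, but 3 were lower with the replicate block and 3 without Zt 6.5 D (1 without Zt 0.5 D). The median change was -0.33, and 2 of the 16 lay above 0.

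The 5 erythrocyte markers summed to 82.8 to 279 CPM at Zt 0.5 (median 149) and 169 to 431 CPM at Zt 6.5 (median 330), with overlapping ranges. All 5 changes lay above 0, with a median of 0.83. *tfr1a*, the transferrin receptor, was the 1 member called of 5 (2 without Zt 6.5 B; 1.16, SE 0.17, adjusted p = 0.00252, edgeR), and *hbba2*, a globin, was not (0.67, adjusted p = 0.333). Leukocyte markers summed to 3090 to 4489 CPM at Zt 0.5 and 3470 to 5511 CPM at Zt 6.5, with 0 of 12 called by edgeR, and 2 higher by DESeq2, at an unadjusted p under 0.05 and without Zt 0.5 C (1 with the replicate block). Of 7 markers of pigment cells and 3 of mucous cells and ionocytes 0 were called by edgeR or DESeq2, with 1 pigment marker lower at an unadjusted p under 0.05 and 1 lower without Zt 0.5 C. Of 9 fibroblast markers 2 rose (22.2%, beside 13.5% of all genes), *col1a2* and *col5a1* (1 without Zt 0.5 B). Of 6 nerve markers 1 fell (16.7%, beside 12.3%), *mbpb*. Of the 9 fibroblast changes 8 lay above 0 (median 0.17), and of the 6 nerve changes 1 (median -0.37). The part of cell makeup in the changes above was not tested.

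The collections mostly shared the direction of the called changes, and less often the calls. Tested apart, 4151 of 18391 genes (22.6%) were called within the earlier collection, 11.7% higher and 10.9% lower, and 1849 of 18524 (9.98%) within the later, 6.33% higher and 3.65% lower. Of the 1171 genes that rose within the later collection and were tested in both, 94.4% were higher in the earlier collection and 67.4% were also called there, against 50.2% of all genes that were higher in the earlier collection. Of 675 that fell within the later collection, 93% were lower in the earlier collection and 63.7% were also called. In the other direction, 91.3% of 2140 genes that rose within the earlier collection were higher in the later collection and 36.9% were called, while of 1991 that fell 80.6% were lower and 21.6% were called. Of the genes called in both, 3 rose in the earlier and fell in the later collection, and 4 did the opposite. Across 17954 genes the log2 changes of the years had a Pearson correlation of 0.434, which describes genes and not replicates. The calls within the earlier collection had medians of 0.78 for rises and -0.90 for falls there, and 0.45 and -0.30 in the later collection. The calls within the later collection had medians of 0.69 and -0.63 there, and 0.65 and -0.79 in the earlier collection. Genes called within a collection are picked for a large change there, so these medians do not compare the size of the step.

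**Figure D3:**
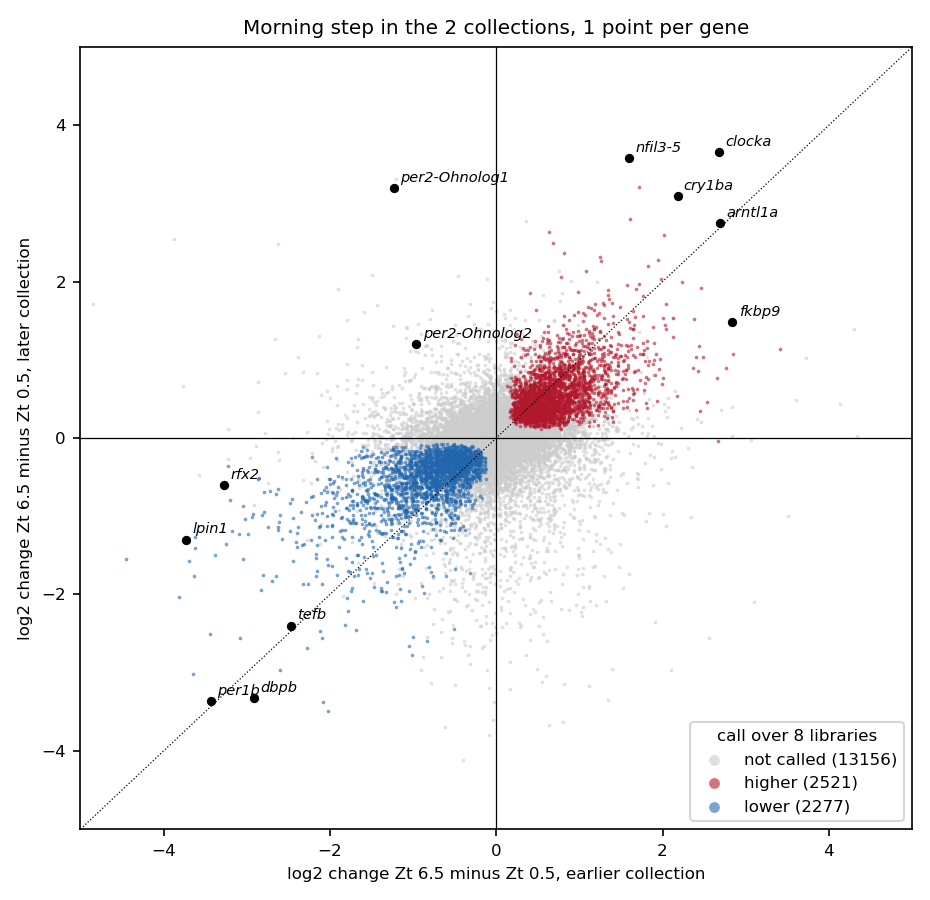
Log2 change from Zt 0.5 to Zt 6.5 within the earlier libraries (horizontal) and within the later libraries (vertical), 1 point for each of 17954 genes (1 lies beyond the axes), coloured by the call over all 8 libraries (red higher, blue lower, grey not called), with a dotted line where the 2 changes are equal. *per1b*, *tefb* and *arntl1a* lie near that line, *lpin1* and *rfx2* lie at larger falls in the earlier collection, and *per2*-Ohnolog1 (-1.23 in the earlier collection, 3.20 in the later collection) and *per2*-Ohnolog2 (-0.96 and 1.2) lie at the upper left.

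The size of the step differed between the collections for 112 of 19216 genes (0.583%) in edgeR's test of the product of year and time, and 99 of the 112 had the larger change in the earlier collection. With the replicate block the number was 321, with DESeq2 1003. It was 0 without any 1 of Zt 0.5 A or Zt 6.5 A, B or C (2384 to 2831 genes at an unadjusted p under 0.05, against 3611 with all 8), 20 without Zt 0.5 B, 34 without Zt 0.5 C, 50 without Zt 6.5 D and 90 without Zt 0.5 D, so the single calls are weakly held. Of the 112, 47 fell in the earlier collection and rose in the later collection by sign.

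The *per2* copies were among these. *per2*-Ohnolog1 (ENSXMAG00000016174) had 118 and 48.7 CPM at Zt 0.5 in the earlier collection and 3.1 and 3.69 CPM in the later collection, while at Zt 6.5 it had 33.1, 39.3, 33.6 and 26.5 CPM. The collections thus stood apart at Zt 0.5 and were alike at Zt 6.5. The change was -1.23 in the earlier collection and 3.20 in the later collection (difference 4.42, adjusted p = 0.0411, edgeR), and over the 8 libraries the gene was not called (0.78, SE 0.94, adjusted p = 0.568). *per2*-Ohnolog2 (ENSXMAG00000006651) had the same form, with 126 and 140 CPM in the earlier collection and 29.6 and 35.4 CPM in the later collection at Zt 0.5, and 63.6 to 75.8 CPM in all 4 libraries at Zt 6.5 (difference 2.16, adjusted p = 0.0356, edgeR).

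*rfx2*, a transcription factor gene, had 32.3 and 24.5 CPM in the earlier collection and 7.87 and 6.39 CPM in the later collection at Zt 0.5, and between 2.71 and 4.52 CPM in all libraries at Zt 6.5. Its fall was steeper in the earlier collection (difference 2.67, adjusted p = 0.0356, edgeR). Over the 8 libraries it changed by -1.98 (SE 0.51, adjusted p = 0.0233, or 0.0583 with the block and 0.0762 and 0.0923 without Zt 6.5 C or D). For *nfil3-5* the collections differed at the end of the step instead, with 30.7 and 38.5 CPM in the earlier collection and 90 and 92.3 CPM in the later collection at Zt 6.5 and 7.77 to 12.3 CPM in all 4 libraries at Zt 0.5 (difference 1.98, adjusted p = 0.0365, edgeR).

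**Figure D4:**
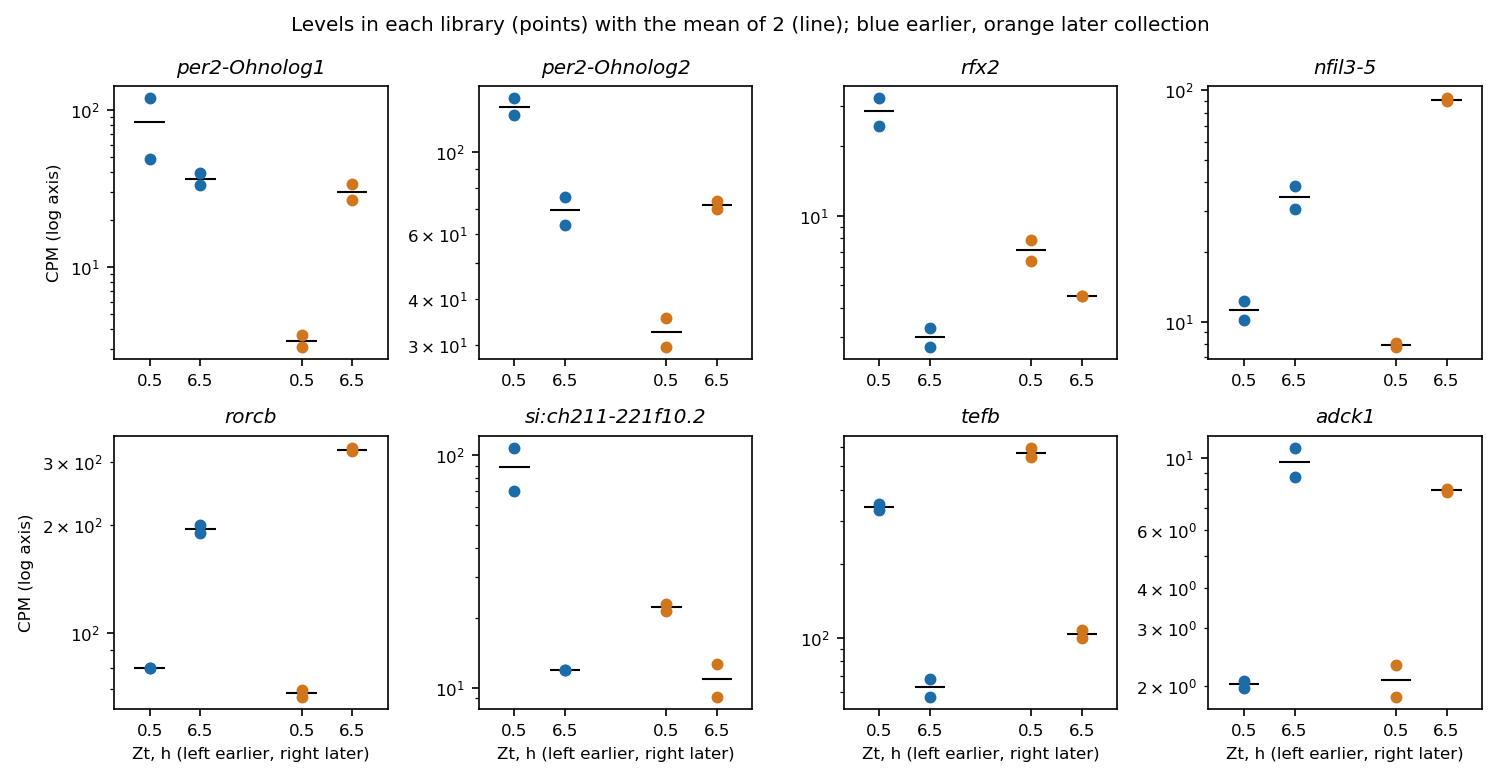
CPM (log axis) of 8 genes in each library (points) with the mean of 2 libraries (line), at Zt 0.5 and Zt 6.5, earlier collection in blue on the left and later collection in orange on the right of each panel. The *per2* copies differ between the years at Zt 0.5 and meet at Zt 6.5, *nfil3-5* and *rorcb* differ at Zt 6.5, and *tefb* and *adck1* change alike in both years.

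Immediate early genes, which respond within minutes to light, handling or other stimuli, differed in their calls between the collections. Within the earlier collection 12 of the 26 tested members fell and 1 rose, beside 10.9% and 11.7% of all genes there. Within the later collection 0 fell and 0 rose, beside 3.65% and 6.33%. *fosab*, chosen for display after its values were seen, had 209, 33.2, 9.83 and 275 CPM at Zt 0.5 and 30.9, 39.5, 5.31 and 793 CPM at Zt 6.5 (-0.15, SE 1.59, adjusted p = 0.952, edgeR). *egr1* and *junba*, chosen in the same way, also had their highest Zt 6.5 value in replicate B of the later collection, at 136 and 41.4 CPM. Over the 8 libraries 2 members fell (7.69%, beside 12.3% of all genes) and 0 rose, beside 13.5%. Also 0 rose by DESeq2 and at an unadjusted p under 0.05, and without Zt 6.5 B 8 fell in edgeR. The median was -1.28 in the earlier collection and 0.40 in the later collection. The 2 called members, *klf9* and *klf6a*, are transcription factor genes, and *klf9* had 54.6, 56.8, 17.7 and 14.3 CPM at Zt 0.5 and 13, 18.3, 10.4 and 4.83 CPM at Zt 6.5 (-1.47, SE 0.27, adjusted p = 0.00572, edgeR). *klf6a* changed by -0.93 and was not called without Zt 6.5 D (adjusted p = 0.0639).

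The earlier collection also held 2 libraries at Zt 3.5, the middle of the step, which no test above used. Their mean lay between that collection's means of Zt 0.5 and Zt 6.5 for 1808 of the 2524 genes that rose (71.6%) and 1513 of the 2302 that fell (65.7%), beside 29.2% of the genes not called. The end points entered the calls and the middle did not, so these shares are a description. By Zt 3.5 the median gene that rose had covered 59% of its difference in that collection and the median gene that fell 68%, beside 48% for the genes not called. *clocka* was nearly there, with means of 8.71, 51 and 56.8 CPM at Zt 0.5, 3.5 and 6.5, and *cpt1b* likewise, at 15.9, 7.51 and 7.38 CPM. *per3* was slower, at 296, 195 and 76.5 CPM. Some genes had their highest level of the 3 times in the middle: *xpc* had 17.6, 69.8 and 30.8 CPM and *cpd photolyase* 36, 102 and 92.7 CPM. So did *cry-dash*, with 13, 22.7 and 16.4 CPM. Of genes not called, *cry5* had 11, 28.3 and 10.9 CPM and *cry1ab*-Ohnolog2 126, 194 and 114 CPM. The middle lay above both ends for 540 of the 2524 genes that rose and 4535 of the 13879 not called.

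Seen over the whole day, the shares below partly follow from how the genes were chosen, since the Zt 0.5 and Zt 6.5 libraries made the calls. The genes that rose had their highest mean at Zt 6.5 most often in the earlier collection (63.9% of 2524, among 8 times, beside 17.3% of all genes tested), and at Zt 3.5 in 18.1% and 8 p.m. in 6.89%. That collection's Zt 9.5 mean rests on 2 unlike libraries. Replicate A held 19609 genes with counts, the fewest of the 24 libraries, and B 20999, with *clockb* at 43.8 and 114 CPM. Both also entered the fit of all 24 libraries. In the later collection, where 4 times were sampled, the highest mean was at 8 p.m. for 92.7% and at Zt 6.5 for 6.26%, beside 32.9% and 10.1% of all genes tested. *hyou1* had means of 47.3, 146 and 61.9 CPM at Zt 0.5, Zt 6.5 and 8 p.m. in the earlier collection, and 27.9, 75.1 and 133 CPM in the later collection. *psmd2* showed the same, with 124, 231 and 184 CPM in the earlier collection and 69.3, 127 and 203 CPM in the later collection. The clock gene *arntl1a* did not, and was higher at 8 p.m. than at Zt 6.5 in both, with 52.9 against 38.5 CPM in the earlier and 49.6 against 34 CPM in the later collection. The genes that fell were highest in the earlier collection at 5 a.m. (37.5%, beside 20.4% of all genes tested), Zt 0.5 (17.4%, beside 7.7%) or 2 a.m. (16.8%, beside 8.2%). In the later they were highest at Zt 0.5 (51.8%, beside 27.2%) or 2 a.m. (47.5%, beside 29.9%).

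**Figure D5:**
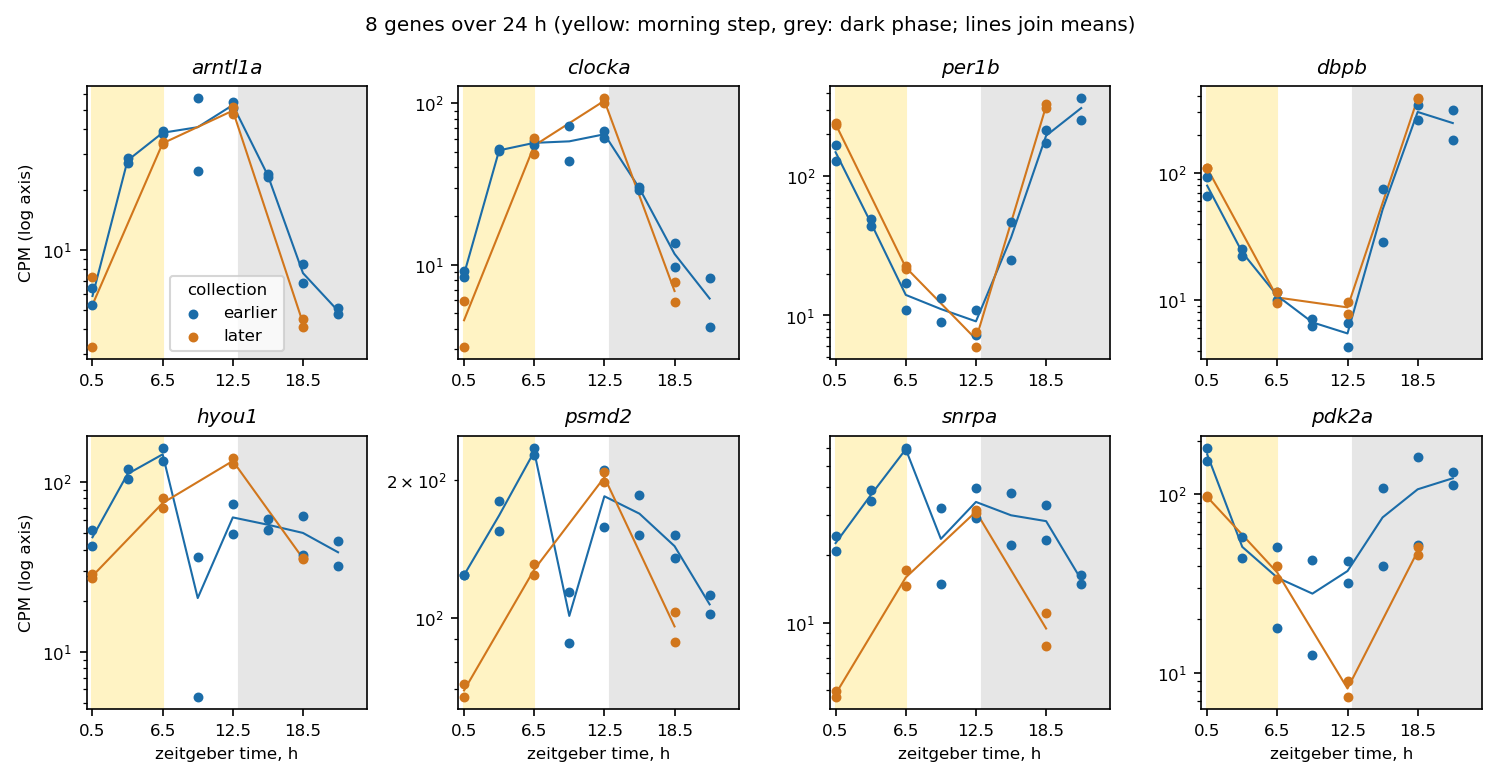
CPM (log axis) of 8 genes against zeitgeber time in hours, each library a point and lines joining the means, earlier collection in blue (8 times) and later collection in orange (4 times), with the morning step in yellow and the dark phase in grey. *arntl1a* goes from 38.5 CPM at Zt 6.5 to 52.9 at 8 p.m. in blue and from 34 to 49.6 in orange, whereas *hyou1* goes down from 146 to 61.9 CPM in blue and up from 75.1 to 133 in orange.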

How the data were processed

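The authors filtered paired-end reads, mapped them with TopHat2 to the *X. maculatus* genome, counted them on Ensembl gene models with featureCounts, and deposited raw counts of 24209 genes in 24 skin libraries without normalization or pooling. No source read here gives the versions of these tools, the strand setting or the treatment of multi-mapping reads, so reads of near-identical copies could be lost or split and overlapping genes could share reads. Every column was assigned by its label.

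Symbols came from the study's gene tables, which name 11808 genes (48.8%). A further 105 with conflicting symbols were left unnamed. Lists cover named genes only, so the shares of all genes with a symbol (17.6% higher and 13.4% lower) are the closer background for them. CPM used library totals. Changes were tested with edgeR 4.0.16 (R 4.3.3; TMM, filterByExpr, quasi-likelihood, terms for library year and time, Benjamini-Hochberg at 0.05). DESeq2 1.42.0, other scalings and filters, a replicate block, fits within each year, over all 24 libraries and without each library were alternatives. On simulated data with 18566 genes the test called 1 of 50 genes changed by 0.5 log2 units, 29 of 50 changed by 1, 47 of 50 changed by 2, and 7 of 18366 unchanged genes. Far more genes were called in the data (4826), so the Benjamini-Hochberg cutoff on p was stricter in the simulation. Its shares therefore do not give the power of the real test for small changes. Replicates of one time and year differed by more than sampling noise (chi-square per degree of freedom 17.9 to 69.6), so none was counted as a repeat.

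The replicate letters are shared between the times. Deviations of same-lettered libraries correlated at 0.248 for A and B and 0.138 for C and D over 16783 genes. The letters of a year mirror each other there, so each value rests on a single contrast and cannot show pairing. Different fish were dissected at each time. The main test therefore did not pair the libraries, and the replicate block was run only as an alternative. Named genes were all tested clock, PAR bZIP and photolyase genes, the 12 largest rises and falls with a mean of at least 5 CPM, a symbol and one direction in both years, up to 4 called members of each other list with the smallest p, and the 3 genes with a symbol that differed most surely between years. Not every gene the rule selects is reported here. Examples outside this rule are other members of the lists and were chosen after their values were seen. Members and lists were chosen with earlier results of these data known. The p-values measure the spread between these fish only.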

Additional observations from a re-analysis of the deposited data

Results flagged for a closer look

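The difference between the collections was past the threshold for 112 genes in edgeR's test of the product of library year and time. Named among them, with the log2 change in the later collection minus that in the earlier, were *per2*-Ohnolog1 (4.42, adjusted p = 0.0411), *rfx2* (2.67, 0.0356), *per2*-Ohnolog2 (2.16, 0.0356), *nfil3-5* (1.98, 0.0365), *si:ch211-221f10.2* (1.95, 0.0489) and *rorcb* (1.06, 0.0411). *rorcb* had log2 changes of 1.25 in the earlier and 2.31 in the later collection, and *si:ch211-221f10.2* of -2.92 and -0.97. Library year and labelled age move with these differences, and their part was not tested.

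In 3 of 238 groups of 4 libraries, looked at for the named genes, 1 library stood far from the other 3 by Dixon's criterion. The criterion flags about 1 group in 20 when all 4 values come from the same normal distribution. Each group here mixes the collections, so that rate does not apply to it. *nr1d2a* had 96.9 CPM in Zt 6.5 replicate D of the earlier collection and 64.1 to 68.3 CPM in the others. *klf15* (ENSXMAG00000007908) had 15.1 CPM in Zt 0.5 replicate C of the earlier collection and 22.4 to 22.8 CPM in the others, and *acacb* had 80.4 CPM in Zt 0.5 replicate D of the earlier collection and 106 to 112 CPM in the others. All 3 genes kept their call without that library.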

How the results depend on the processing

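The counts of 2524 higher and 2302 lower genes stayed within 1.5 times under DESeq2, the other scalings and filters, the replicate block (1943 and 1624) and the earlier libraries alone. They were 594 and 414 with all 24 libraries in 1 fit, 295 and 262 without a library year term, and 1172 and 677 in the later libraries alone. Leaving out 1 library at a time gave 1815 to 2372 higher and 1430 to 2224 lower, the lowest without Zt 6.5 C (1430), Zt 6.5 D (1462) and Zt 0.5 C (1498). The number of genes whose change differed between the collections was 112. It was 1003 with DESeq2, 321 with the replicate block, 0 with all 24 libraries (1276 at an unadjusted p under 0.05) and 0 to 90 without 1 library. Of 119 named genes 112 were called, and these kept their direction in every alternative. 98 stayed called in all fits without 1 library, 79 within each year and 58 with all 24 libraries. *per2*-Ohnolog2 reversed, at -0.96 with only the earlier libraries beside 0.09 over all 8. *per2*-Ohnolog1, *cry1ab*-Ohnolog2, *cry5* and *nfil3-6*, not called over all 8, also changed sign within 1 collection. The replicate block ended the call of 5 named genes, given above, and of no other. No median of a list changed sign with the scaling. Upper quartile scaling put 49.3% of calls on the higher side and RLE 56.5%, beside 52.3%. The cause of these differences was not tested. A count of 0 allowed up to 0.0832 to 0.115 CPM, so that smaller levels could not be compared.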

Other observations

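The following lists were chosen after values were seen, so their counts are a description. Beside them stand 13.5% higher and 12.3% lower of all genes tested, and 17.6% and 13.4% of those with a symbol. Many genes of autophagy, by which cells digest their own parts, fell. Of 44 tested genes of autophagy and lysosomes 17 fell and 3 rose (5 rose with RLE scaling and with library totals). Within the earlier collection 13 fell and 3 rose, beside 10.9% and 11.7% of all genes there. Within the later 6 fell and 5 rose, beside 3.65% and 6.33%. The median was -0.28 in the earlier collection and -0.05 in the later. When all 24 libraries shared 1 edgeR fit, 2 fell and 1 rose, with 14 lower and 1 higher at an unadjusted p under 0.05. Of all 19783 genes in that fit 414 fell and 594 rose. *ulk2*, a kinase that starts the process, had 68.5, 115, 81.6 and 85.1 CPM at Zt 0.5 (earlier C and D, then later A and B) and 18.9, 26.1, 30.6 and 34.2 CPM at Zt 6.5, a log2 change of -1.70 (SE 0.22, adjusted p = 0.00151, edgeR). *wipi1*, a membrane factor of early autophagosomes, changed by -1.61, *bnip3la*, a receptor for the removal of mitochondria, by -1.32, *atg2a* by -1.07, and *map1lc3b* fell 2-fold, and for each of these genes the groups did not overlap. *uvrag* and *npc2* rose, by 0.74 and 0.47.

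Many genes that move proteins through nuclear pores or into mitochondria rose. Of 40 tested genes of nuclear transport 27 rose and 2 fell (1 with the replicate block and without any 1 of Zt 0.5 C or Zt 6.5 A or C). *nup93*, of the nuclear pore, had 70.5, 67.5, 31.4 and 29 CPM at Zt 0.5 and 134, 142, 56.5 and 52.6 CPM at Zt 6.5 (0.92, SE 0.07, adjusted p = 0.00027, edgeR), and the importin gene *ipo4* rose by 1.41. The import receptor gene *tnpo1* fell, with a log2 change of -0.79. Of 27 tested genes of mitochondrial protein import 14 rose and 1, a copy of *tomm20a* (ENSXMAG00000006538), fell (0 without Zt 6.5 A, C or D), with *tim50* at 1.37 and *tomm22* at 0.91. Of 30 genes of amino acid and one-carbon synthesis 8 rose and 5 fell. Among them *mtr*, methionine synthase, rose by 1.12 and *asns*, asparagine synthetase, by 1.48, while *mat2ab*, which makes S-adenosylmethionine, changed by -0.57. Those counts were 4 and 2 without Zt 6.5 A or C, 5 and 1 without Zt 0.5 B, and 6 and 2 without Zt 0.5 C or Zt 6.5 D. In the edgeR fit of all 24 libraries, 7 nuclear transport, 2 mitochondrial import and 3 of 32 amino acid and one-carbon genes rose, and 0 fell. There 24, 11 and 7 were higher and 1, 0 and 2 lower at an unadjusted p under 0.05. Of all 19783 genes in that fit 594 rose and 414 fell.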
